A study of Mus musculus with 12 samples.

Results

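The genes described here are the 90 of 20325 annotated mouse genes whose RNA was lower with ascorbic acid (AA) and higher with 2i than with DMSO in partially reprogrammed cells (pre-iPSCs). They were chosen on TPM (a transcript abundance that corrects for gene length and library size) by the difference in log2(TPM + 1) of a treated library from the DMSO library that bore its replicate letter. The AA difference had to be below 0 in all 3 letters with a mean of -0.4 or less, and the 2i difference above 0 in all 3 letters with a mean of 0.4 or more. The opposite pattern, up with AA and down with 2i, was met by 234 genes under the same limits. All 90 genes passed the filter on low counts that left 13400 genes for testing.

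RNA-Seq was performed on pre-iPSCs treated for 48 h, without their feeder layer, using DMSO as the control, AA (50 μg ml−1), 2i (a MEK inhibitor at 1 μM and a GSK inhibitor at 3 μM) or AA and 2i combined (AA+2i), in 3 biological replicates labelled A, B and C. All 4 conditions shared the same serum-containing embryonic stem cell (ESC) medium. Clonal pre-iPSC lines of the study came from Nanog-GFP fibroblasts infected with pMX retroviruses for Oct4, Sox2, c-Myc and Klf4, or from cells with a single-cassette factor allele and R26 rtTA. The sources used here do not say which line gave this RNA or whether the replicates came from separate lines, so p-values measure the spread between these 12 libraries. Expected counts summed to between 16173322 and 54392719 per library with a median of 21854761, and DMSO B and AA B were the deepest. The 12 markers of pre-iPSC and epithelial cells summed to 2171 to 10109 TPM per library, none of them at 0 in all 3 libraries of a condition. Most of this sum was Pou5f1 (Oct4), also a factor given to the cells. Its means were 5111 TPM in DMSO, 3586 in AA, 3279 in 2i and 3107 in AA+2i libraries. In the same order, mean Cdh1 was 43.2, 92.4, 53.4 and 123 TPM, and mean Fut9 was 23.4, 12.1, 10.2 and 7.52 TPM. Mean Cldn6 was near the floor at 0.05, 0.53, 0.05 and 0.03 TPM. The 13 fibroblast feeder markers measured summed to 10.1 to 26.8 TPM, with Lum at 0 in every library.

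AA (vitamin C) is a cofactor of iron-dependent dioxygenases, among them the Tet enzymes that oxidize methylated DNA and many histone demethylases. The MEK inhibitor in 2i blocks signalling to ERK, and the GSK inhibitor stabilizes β-catenin, the effector of canonical Wnt signalling. Used together with LIF, 2i holds mouse ESCs in the naive state, and AA is known to aid the late steps of reprogramming.

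The promoters of 4 of the genes are shown because these genes carry the patterns described below. Plagl1, Cp and Mtap1b are among the 12 genes with the largest opposite changes, and Epha4 rose with AA+2i. Each is the 250 bases before the RefSeq start, 5′ to 3′ on the gene's strand, with every match to a searched motif in capitals.
Plagl1 (GRCm38.p6 chr10:13090582-13090831, plus strand): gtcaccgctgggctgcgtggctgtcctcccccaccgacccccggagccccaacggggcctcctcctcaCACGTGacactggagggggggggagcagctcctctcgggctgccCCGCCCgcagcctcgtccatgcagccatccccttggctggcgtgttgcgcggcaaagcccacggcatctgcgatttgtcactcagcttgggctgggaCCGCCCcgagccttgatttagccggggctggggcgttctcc
Cp (GRCm38.p6 chr3:19956804-19957053, plus strand): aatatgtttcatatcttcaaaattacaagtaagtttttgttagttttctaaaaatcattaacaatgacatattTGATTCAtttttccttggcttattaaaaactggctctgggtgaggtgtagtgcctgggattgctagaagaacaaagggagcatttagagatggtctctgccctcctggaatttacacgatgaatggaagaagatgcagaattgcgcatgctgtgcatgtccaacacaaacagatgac
Mtap1b (GRCm38.p6 chr13:99516603-99516852, minus strand): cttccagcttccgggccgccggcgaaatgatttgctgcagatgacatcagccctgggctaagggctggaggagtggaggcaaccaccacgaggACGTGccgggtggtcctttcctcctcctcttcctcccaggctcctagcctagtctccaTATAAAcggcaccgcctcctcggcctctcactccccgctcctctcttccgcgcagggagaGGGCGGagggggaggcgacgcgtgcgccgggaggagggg
Epha4 (GRCm38.p6 chr1:77515089-77515338, minus strand): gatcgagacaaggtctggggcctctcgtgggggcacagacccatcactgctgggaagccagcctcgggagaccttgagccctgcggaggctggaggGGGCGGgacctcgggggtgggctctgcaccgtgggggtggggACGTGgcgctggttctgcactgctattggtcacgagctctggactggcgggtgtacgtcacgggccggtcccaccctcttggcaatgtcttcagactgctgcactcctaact
The capitals mark CACGTG (E-box) and the GC box GGGCGG, read as CCGCCC on the other strand, in Plagl1. In Cp they mark TGANTCA (AP-1), in Mtap1b ACGTG, the TATA box TATAAA and the GC box, and in Epha4 the GC box and ACGTG. Of the 90 genes, 69 had an entry in the RefSeq promoter table. TATAAA was found in 12 of them (17.4%) against 6.47% of 10710 tested genes. The other 6 motifs were nearer to their share over all promoters. ACGTG, the core of the hypoxia response element, was found in 27.5% against 21.3%, GGGCGG in 53.6% against 59.2% and CACGTG in 8.7% against 8.24%. TGANTCA was found in 5.8% against 4.35%. CTTTGAT, the TCF/LEF motif, was found in 2 promoters, Aif1l and Wnt11 (2.9% against 2.27%), and TGACGTCA (CRE) in 2, Kctd8 and Kif5c (2.9% against 2.73%). Both strands were searched, and every CACGTG also holds ACGTG. A match is a run of letters in this window and not a measured binding site.

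Most of the 90 genes were expressed at low levels. The median of their mean DMSO levels was 2.98 TPM (range 0.37 to 139) against 20.4 TPM over all tested genes, with 56 genes under 5 TPM and 9 at 20 TPM or more. Their median GC content was 49.4% against 50.3%, and their median transcript length was 3477 against 3016 bases. The X chromosome held 6 of them (6.67%, against 3.43% of the tested genes), namely Zfp711, Col4a5, Gdpd2, Pak3, Armcx4 and Hs6st2. The gene spans of 9 overlapped another gene, including B2m, Ccrl1, Cp, Pip5k1b and Zeb2. The authors counted with an RSEM forward probability of 0.5, which does not use strand. Reads from transcript sequence that overlapping genes share could thus not be told apart by strand. Whether the exons of these genes overlap was not checked.

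The differences that chose the genes are given as a description. The mean AA difference lay between -1.60 and -0.40, and the mean 2i difference between 0.40 and 2.07. The median over the genes of the AA difference was -0.50 (A), -0.77 (B) and -0.61 (C), and that of the 2i difference was 0.85 (A), 0.63 (B) and 0.77 (C). Over all tested genes these medians were 0.08, -0.16 and -0.01 for AA and -0.01, -0.30 and -0.16 for 2i. With edgeR, 8 of the 90 (8.89%) were called lower with AA, where 0.47% of all tested genes were called lower and 0.866% higher, and 23 (25.6%) were called higher with 2i, where 1.59% were called higher and 2.83% lower. Both calls were made for 4 genes. Nothing is read from these counts, because the same libraries chose the genes.

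**Figure D1:**
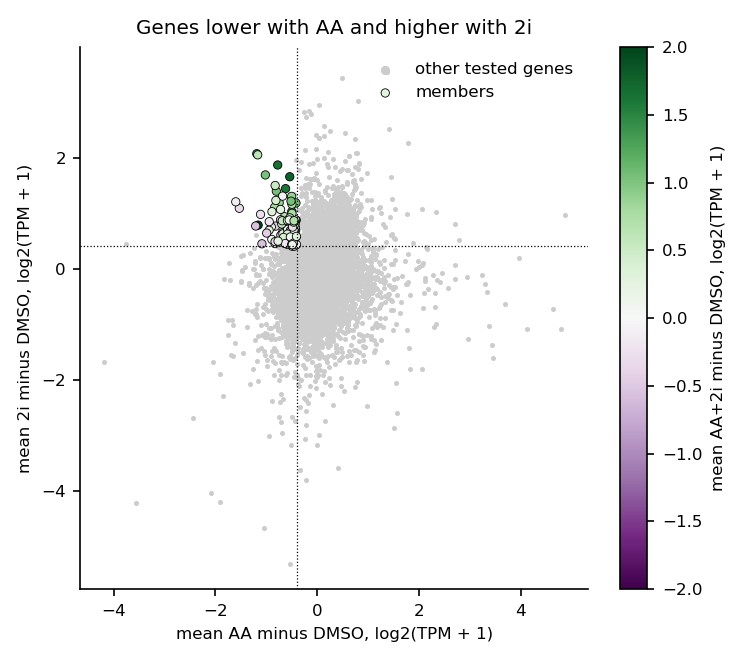
Mean difference from DMSO in log2(TPM + 1) with AA (x axis) and with 2i (y axis) for the tested genes, each point a gene and each mean over 3 letters. The 90 chosen genes lie in the upper left corner set by the dotted limits of -0.4 and 0.4, and their colour, the mean AA+2i difference, runs from -0.56 to 2.01.

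The genes nearest to the limits show how fine the boundary was. Just inside were Nck1 (-0.40 with AA and 0.43 with 2i), an adaptor that links receptors to the actin cytoskeleton, Atcay (-0.49 and 0.40) and Wnt11 (-0.40 and 0.58), a Wnt ligand. Just outside were Hoxa4 (-0.46 and 0.3995), Akap2 (-0.76 and 0.39) and Slc9a2 (-0.39 and 0.77).

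Opposite changes were also seen in libraries that took no part in the choice. When the rule was applied to 2 letters only, 92, 79 and 100 genes were chosen with A, B and C left out. In the letter left out, the median AA difference of these genes was -0.44 (A), -0.83 (B) and -0.57 (C), and 91.3%, 98.7% and 87% of the genes lay below 0. Over all tested genes, 38.4%, 66.2% and 51.1% lay below 0. The median 2i difference in the letter left out was 0.86, 0.64 and 0.79, and 97.8%, 91.1% and 93% of the genes lay above 0, against 49.2%, 25.3% and 37.4% of all tested genes. The AA and 2i differences of a letter share its DMSO library. These are medians over genes within a library, and no test was made of them.

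**Figure D2:**
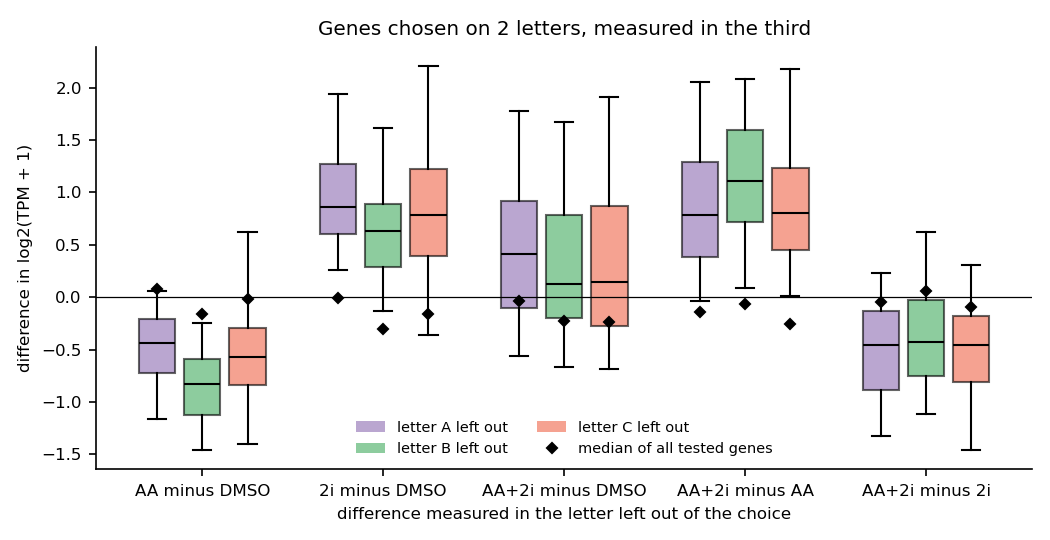
Differences in log2(TPM + 1) in the letter left out of the choice, for the 92, 79 and 100 genes chosen without A, B and C. Boxes span the quartiles with the median as a line, whiskers run from the 5th to the 95th percentile of genes, and diamonds are medians of all tested genes. The AA boxes lie below 0, the 2i boxes above 0, and the median of AA+2i lies above AA and below 2i in each letter.

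The AA+2i libraries were not used by the rule, although the DMSO libraries they are compared with were. The AA and 2i means chose the genes, so a level between them is largely set by the choice and is given as a description. The mean AA+2i level fell between the AA and 2i means for 79 of the 90 genes, above the 2i mean for 11 and below the AA mean for 0. It lay between AA and DMSO for 29 genes and between DMSO and 2i for 50. The median AA+2i minus DMSO difference was 0.41 (A), 0.26 (B) and 0.15 (C), a mean of 0.27 ± 0.13 (SD, n = 3), against -0.03, -0.23 and -0.23 over all tested genes. In genes chosen without the letter measured, the median AA+2i minus AA difference was 0.78, 1.11 and 0.81, and the AA+2i minus 2i difference was -0.45, -0.42 and -0.45. The AA+2i minus DMSO difference in these genes was 0.41 (A), 0.12 (B) and 0.15 (C), with 69.6%, 59.5% and 60% of genes above 0, against 48.3%, 31.1% and 36.9% of all tested genes.

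Tested across all genes with edgeR, 14 of the 90 genes (15.6%) rose with AA+2i against DMSO, where 3.93% of all tested genes were called higher. None of the 90 was called lower (0 at an unadjusted p under 0.05, and 0 with DESeq2 or limma), where 4.41% of all tested genes were. The lowest mean AA+2i difference in log2(TPM + 1) was -0.56. In simulated data the edgeR test found 16% of genes changed by 1 in log2, so small falls can go uncalled. The changed genes of the simulation had higher counts only, and no letter or GC effect was put in. The share found may thus differ for these mostly low genes. The unadjusted p was under 0.05 for 32 genes, all higher. The share of all tested genes under that limit is not given here. Nothing is therefore read from the counts at an unadjusted p in this paragraph. Without replicate B 0 genes were called (18 higher and 0 lower at an unadjusted p under 0.05) and without replicate C 5 were, where 4 (0.0311%) and 169 (1.29%) of all genes then tested were called higher. DESeq2 called 25 of the 90, and 6.71% of all tested genes. Igf2, Prom1, Epha4, Slc22a4 and Ccrl1 kept their call without replicate C, and Col4a5, Igf2, Lrp4 and 6430573F11Rik lost theirs without replicate A. In 24 genes (26.7%) all 3 AA+2i libraries lay above all 3 DMSO libraries, against 9.6% of tested genes, and in 5 (5.56%) all lay below, against 22.5%. Those 5 were Cp, Aif1l, Ets1, Serpine2 and Nedd9, and none passed the test.

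Of the 9 feeder markers tested, 0 were called with AA (edgeR; 1 higher and 3 lower at an unadjusted p under 0.05, and 0 with DESeq2 or limma). With 2i 0 were called (edgeR; 1 higher and 2 lower at an unadjusted p under 0.05, 1 in each direction with DESeq2 and 0 with limma), and with AA+2i 1, Col3a1, was called higher. The 9 markers had a median log2 fold change of -0.92 in the AA contrast, 0.33 for 2i and -0.41 for AA+2i, the same signs as the chosen genes with AA and 2i and the opposite sign with AA+2i. The summed level of the 13 feeder markers was 12.2 to 26.8 TPM with DMSO, 14.3 to 22.4 with AA, 11.8 to 15.5 with 2i and 10.1 to 16.5 with AA+2i. This sum mixes opposite changes within the list. In the same order, mean Thy1 was 5.13, 12.6, 1.15 and 3.8 TPM, and mean Fbn1 was 6.29, 3.00, 6.71 and 4.05 TPM. None of the 90 genes is in this list, and its part in the results was not tested. In bulk RNA, fewer cells of a type and less RNA per cell cannot be told apart.

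**Figure D3:**
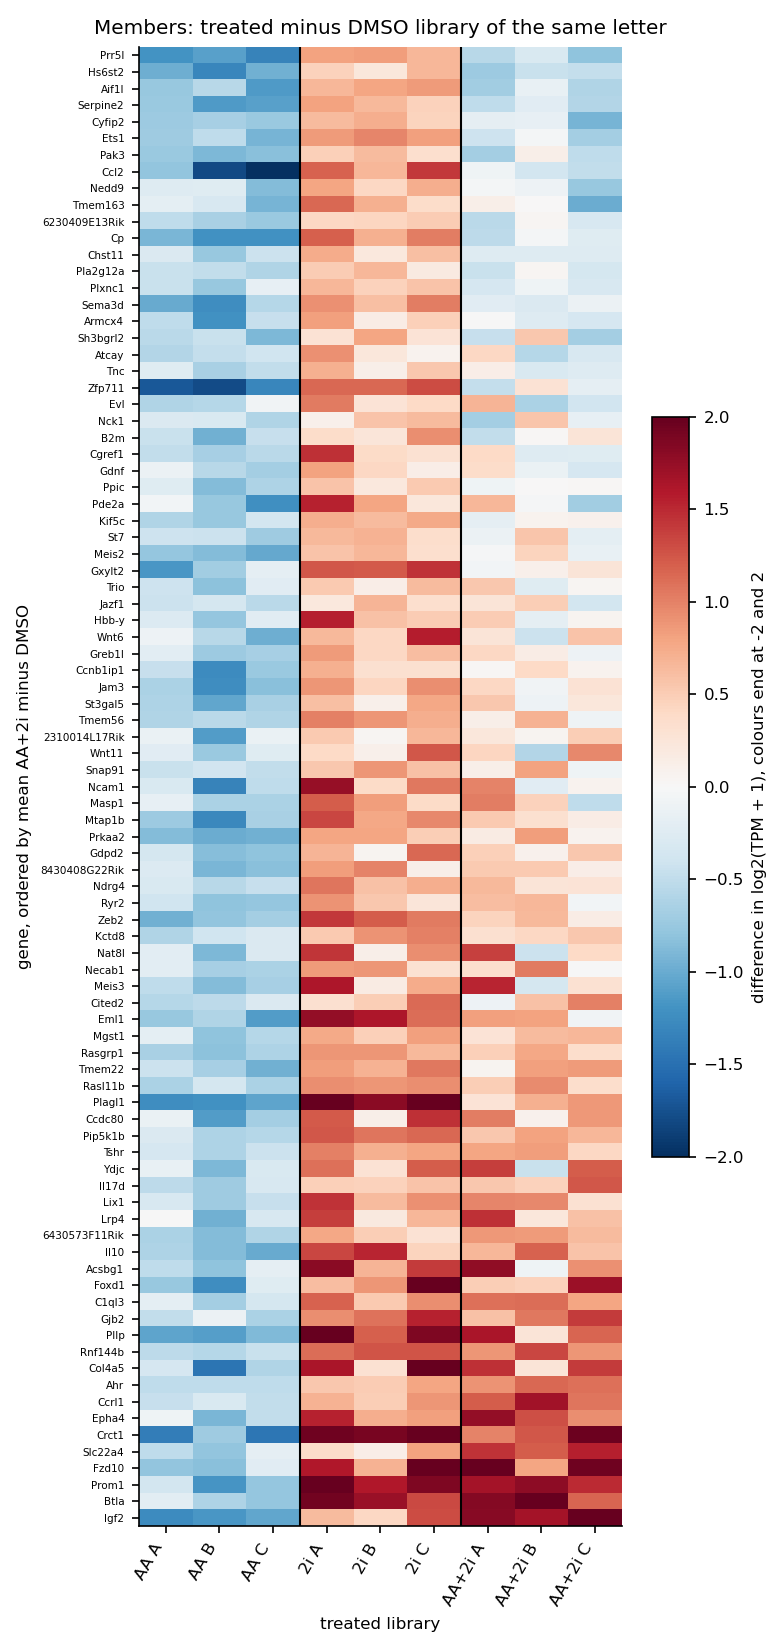
Difference in log2(TPM + 1) of every treated library from its same-letter DMSO control, for 89 of the 90 genes (rows) ordered by their mean AA+2i difference, with colours ending at -2 and 2. The AA columns are blue and the 2i columns red by the choice of genes, while the AA+2i columns pass from blue for Prr5l (top) to red for Igf2 (bottom).

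Of the 20 genes named by the rule that were not called with AA+2i, 14 were called higher under 1 or more alternatives and 0 lower. Plagl1, Pllp, Il10 and Eml1 were called in 4, and Zeb2, Foxd1 and Mgst1 in 3. Most of these calls came from the replicate block, the GC correction, both together or DESeq2. Those settings called 15.3%, 8.9%, 17.1% and 6.71% of all tested genes higher, against 3.93% in the main test. Nothing is read from the count of 14.

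Grouped by what their proteins do, the genes gave different counts with AA+2i. The roles were assigned after the values were seen, so the counts are descriptions with no test between roles. For comparison, 15.6% of all the chosen genes and 3.93% of all tested genes were called higher with AA+2i. The role counts were not tested against these shares, and in groups this small a count of 0 or 1 says little. Of 14 receptors and surface proteins, 6 rose with AA+2i and the median difference in log2(TPM + 1) was 0.89. Of 9 transcription regulators 1 rose (median 0.49), of 17 enzymes, transporters and channels 3 rose (median 0.37), and of 15 secreted and matrix proteins 3 rose (median 0.27). Of the 11 cytoskeletal, vesicle and synaptic proteins 0 rose (median -0.01), with 1 higher at an unadjusted p under 0.05, 1 called by DESeq2 and 0 by limma, and of the 24 other genes 1 rose (median 0.16).

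Among receptors and surface proteins, the 6 that rose were Btla, Prom1, Epha4, Fzd10, Ccrl1 and Lrp4. Btla (chr16:45224428-45253008 in mm9), an inhibitory receptor of lymphocytes, was at 2.71, 1.83 and 3.08 TPM in the DMSO libraries, 2.19, 0.84 and 1.39 under AA, 13.1, 8.32 and 9.16 under 2i and 12.2, 13.3 and 8.14 under AA+2i, each trio in the order A, B, C. All AA+2i libraries lay above all DMSO libraries, and the log2 fold change was 2.31 ± 0.37 (SE, edgeR adjusted p = 0.00361). Prom1 (chr5:44384864-44493271), a protein of membrane protrusions also known as CD133, was at 9.66, 9.65 and 6.61 TPM in the DMSO libraries, 7.3, 3.69 and 3.44 under AA, 45.2, 31.5 and 26.9 under 2i and 32.9, 35.7 and 20.3 under AA+2i. The AA+2i and DMSO libraries did not overlap, with a log2 fold change of 1.96 ± 0.30 (SE, edgeR adjusted p = 0.00312).

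Epha4 (chr1:77363760-77511663), a receptor of ephrins in axon guidance, was at 2.58, 3.66 and 3.72 TPM in the DMSO libraries, 2.38, 1.46 and 2.37 under AA, 9.38, 6.71 and 7.35 under 2i and 11.2, 10.4 and 7.95 under AA+2i. It was above its mean 2i level with AA+2i, and its log2 fold change against DMSO was 1.77 ± 0.25 (SE, edgeR adjusted p = 0.00170). Fzd10 (chr5:129106719-129109968), a Frizzled receptor for Wnt ligands, was at 1.76, 3.77 and 2.21 TPM in the DMSO libraries, 0.59, 1.68 and 1.74 under AA, 7.37, 6.75 and 12.01 under 2i and 10.6, 7.26 and 11.4 under AA+2i, with AA+2i above DMSO in every library. Its log2 fold change was 2.17 ± 0.46 (SE, edgeR adjusted p = 0.0143). Ccrl1 (chr9:103986487-104004890), an atypical receptor that scavenges chemokines, was at 1.34, 1.31 and 1.55 TPM in the DMSO libraries, 0.7, 0.87 and 0.81 under AA, 2.8, 2.24 and 3.71 under 2i and 4.41, 6.4 and 4.36 under AA+2i. All 3 AA+2i values were above the 2i values, and the log2 fold change against DMSO was 2.05 ± 0.29 (SE, edgeR adjusted p = 0.00201).

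Lrp4, a co-receptor of the LDL receptor family named after its values were seen, also rose (log2 fold change 0.98 ± 0.25, SE, edgeR adjusted p = 0.0338), although DMSO B, at 21.37 TPM, overlapped its AA+2i libraries at 27.45, 25.17 and 16.96 TPM. Prom1, Epha4 and Ccrl1 were called in 11 of 12 alternative analyses, and Btla and Fzd10 in 10, while Lrp4 was called in 6. Pllp, plasmolipin of myelin membranes, was at 6.85, 17.9 and 8.79 TPM in the DMSO libraries, 2.78, 7.8 and 4.29 under AA, 30.4, 42.4 and 34.7 under 2i and 23.5, 21.6 and 20.97 under AA+2i. It did not pass the test (log2 fold change 1.22 ± 0.39, SE, edgeR adjusted p = 0.0820), although all AA+2i libraries lay above DMSO. Plxnc1, a semaphorin receptor, was at 1.97, 1.57 and 1.08 TPM in the DMSO libraries, 1.19, 0.52 and 0.86 under AA, 3.69, 2.54 and 2.1 under 2i and 1.35, 1.42 and 0.66 under AA+2i, and its AA+2i and DMSO libraries overlapped.

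Jam3 and B2m were the most abundant of the surface proteins. B2m, the light chain of MHC class I molecules, was at 159, 155 and 101 TPM in the DMSO libraries, 117, 79.1 and 73.6 under AA, 206, 185 and 193 under 2i and 114, 158 and 121 under AA+2i. Its AA+2i and DMSO libraries overlapped, with a log2 fold change of 0.13 ± 0.22 (SE, edgeR adjusted p = 0.690). Jam3, a junctional adhesion molecule, was at 44.3, 64.4 and 31.9 TPM in the DMSO libraries, 28.4, 26.7 and 17.4 under AA, 82.3, 87.5 and 61.7 under 2i and 59.2, 61.5 and 38.98 under AA+2i, and did not pass the test (edgeR adjusted p = 0.300).

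Among secreted and matrix proteins, Igf2 (chr7:149836673-149852721), an imprinted growth factor, had the largest mean AA+2i difference of the 90 genes. It was at 5.82, 5.24 and 9.28 TPM in the DMSO libraries, 1.84, 1.77 and 4 under AA, 9.54, 7.29 and 24.5 under 2i and 23.1, 18.8 and 58.98 under AA+2i. All 3 AA+2i libraries lay above all DMSO libraries, and the C library was highest in every condition. The log2 fold change was 2.57 ± 0.68 (SE, edgeR adjusted p = 0.0396), and the call was lost without replicate A and without replicate B (edgeR adjusted p up to 0.269 over the 12 alternatives). C1ql3, a secreted C1q-like protein of synapses, was at 1.42, 1.48 and 1.04 TPM in the DMSO libraries, 1.12, 0.54 and 0.6 under AA, 4.48, 2.55 and 2.87 under 2i and 4.2, 4.36 and 2.51 under AA+2i, and rose with AA+2i (log2 fold change 1.67 ± 0.32, SE, edgeR adjusted p = 0.00879). Col4a5 (chrX:137909928-138123778), a collagen chain of basement membranes, was at 2.95, 7.27 and 3.07 TPM in the DMSO libraries, 2.12, 2.02 and 1.67 under AA, 11.3, 9.23 and 18.2 under 2i and 9.83, 8.88 and 9.78 under AA+2i. It rose as well (log2 fold change 1.37 ± 0.35, SE, edgeR adjusted p = 0.0344), with the B libraries of DMSO and AA+2i nearest, and the call was lost without any 1 of the 3 letters.

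The other secreted proteins with large opposite changes did not pass the test with AA+2i. Ccl2, a chemokine that attracts monocytes, was at 1.43, 2.98 and 4.22 TPM in the DMSO libraries, 0.41, 0.14 and 0.31 under AA, 4.5, 5.3 and 12.9 under 2i and 1.28, 2.08 and 2.71 under AA+2i. Cp, ceruloplasmin, the copper-carrying ferroxidase, was at 2.55, 2.36 and 2.66 TPM in the DMSO libraries, 0.89, 0.45 and 0.58 under AA, 7.09, 4.51 and 6.46 under 2i and 1.48, 2.27 and 2.08 under AA+2i, with the AA and 2i libraries well apart and AA+2i just below DMSO. Sema3d, a secreted semaphorin, was at 1.95, 1.69 and 0.82 TPM in the DMSO libraries, 0.47, 0.14 and 0.22 under AA, 4.56, 3.07 and 2.7 under 2i and 1.52, 1.21 and 0.68 under AA+2i. Il10, an anti-inflammatory cytokine, was at 2.29, 1.9 and 1.79 TPM in the DMSO libraries, 1.14, 0.59 and 0.38 under AA, 7.29, 7.37 and 2.81 under 2i and 4.23, 5.56 and 3.14 under AA+2i. The log2 fold changes with AA+2i were -0.26 ± 0.57, -0.19 ± 0.30, -0.20 ± 0.43 and 1.30 ± 0.41 (SE), with edgeR adjusted p-values of 0.759, 0.673, 0.756 and 0.0812.

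**Figure D4:**
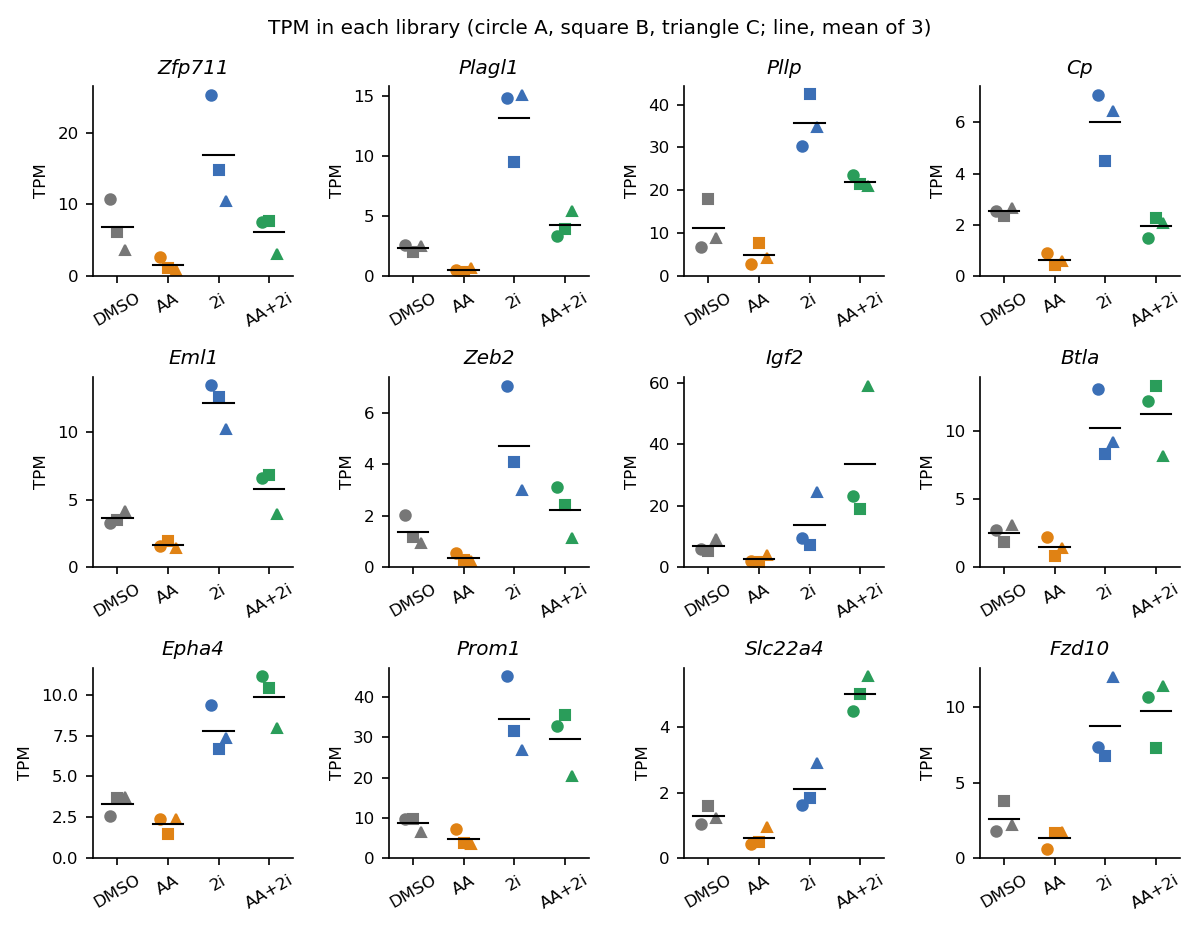
TPM of 12 of the genes in each of the 12 libraries, by condition (x axis), with letters as symbols and the mean of 3 as a line. Every gene is lowest with AA, and AA+2i lies near DMSO for Zfp711 and Cp but at or above 2i for Igf2, Btla, Epha4, Slc22a4 and Fzd10.

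Transcription regulators were led by Zfp711 and Plagl1. Zfp711 (chrX:109714135-109748679), a zinc finger protein, was at 10.8, 6.13 and 3.64 TPM in the DMSO libraries, 2.63, 1.06 and 0.88 under AA, 25.3, 14.8 and 10.5 under 2i and 7.47, 7.71 and 3.09 under AA+2i. Its AA+2i libraries overlapped those of DMSO and it did not pass the test (log2 fold change -0.01 ± 0.50, SE, edgeR adjusted p = 0.987), and the sign of this value turned under 5 alternatives. Plagl1 (chr10:12810497-12851500), an imprinted zinc finger protein whose promoter is printed above, was at 2.6, 2.01 and 2.49 TPM in the DMSO libraries, 0.53, 0.3 and 0.68 under AA, 14.8, 9.51 and 15.1 under 2i and 3.35, 3.91 and 5.39 under AA+2i. The AA+2i libraries lay above DMSO and below 2i without overlap, and the change from DMSO did not pass the test (log2 fold change 1.06 ± 0.36, SE, edgeR adjusted p = 0.102).

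Zeb2, a repressor of E-cadherin in epithelial to mesenchymal transition, was at 2.01, 1.19 and 0.95 TPM in the DMSO libraries, 0.54, 0.27 and 0.22 under AA, 7.06, 4.09 and 3.02 under 2i and 3.12, 2.42 and 1.15 under AA+2i, and its AA+2i and DMSO libraries overlapped. Foxd1, a forkhead factor, was at 85.6, 65.7 and 33.6 TPM in the DMSO libraries, 50.5, 27.2 and 28.3 under AA, 131, 122 and 143 under 2i and 121, 90.8 and 112 under AA+2i. Its transcripts have 64.2% GC, and its AA+2i log2 fold change of 1.03 ± 0.33 (SE, edgeR adjusted p = 0.0857) became -1.13 with a correction for GC content. Ahr, the aryl hydrocarbon receptor, named after its values were seen, was at 1.83, 1.35 and 1.69 TPM in the DMSO libraries, 1, 0.66 and 0.9 under AA, 3.1, 2.34 and 3.64 under 2i and 4.3, 4.19 and 4.76 under AA+2i and rose (log2 fold change 1.65 ± 0.29, SE, edgeR adjusted p = 0.00557).

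Among enzymes and transporters, Slc22a4 (chr11:53796625-53841592), an organic cation transporter, was at 1.03, 1.6 and 1.23 TPM in the DMSO libraries, 0.42, 0.5 and 0.96 under AA, 1.62, 1.84 and 2.91 under 2i and 4.5, 5 and 5.55 under AA+2i. The AA+2i libraries lay above all others, 2i included, and the log2 fold change from DMSO was 2.19 ± 0.38 (SE, edgeR adjusted p = 0.00568). Rnf144b, a ubiquitin ligase, and Pip5k1b, a phosphoinositide kinase, also rose and were named after their values were seen. Their log2 fold changes were 1.47 ± 0.37 and 1.18 ± 0.28 (SE), with edgeR adjusted p-values of 0.0332 and 0.0269. Mgst1, a membrane glutathione transferase, and Ppic, cyclophilin C, were among the most abundant of the 90 genes. Mgst1 was at 136, 147 and 82.3 TPM in the DMSO libraries, 118, 83.8 and 55.1 under AA, 231, 206 and 146 under 2i and 164, 227 and 131 under AA+2i, and Ppic was at 140, 152 and 110 TPM in the DMSO libraries, 118, 82.6 and 71.2 under AA, 208, 176 and 159 under 2i and 131, 152 and 111 under AA+2i. Neither passed the test with AA+2i (log2 fold changes 0.72 ± 0.28 and 0.18 ± 0.19, SE, edgeR adjusted p = 0.148 and 0.513).

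The cytoskeletal, vesicle and synaptic genes had mean AA+2i differences from DMSO between -0.43 and 0.52. Mtap1b, a microtubule-associated protein of neurons, was at 11.8, 10.03 and 6.44 TPM in the DMSO libraries, 6.71, 3.53 and 3.74 under AA, 31.1, 17.9 and 13.5 under 2i and 17.3, 12.8 and 7.27 under AA+2i, with overlapping DMSO and AA+2i libraries. Eml1 (chr12:109609167-109777827), another microtubule-associated protein, was at 3.3, 3.45 and 4.17 TPM in the DMSO libraries, 1.55, 1.94 and 1.38 under AA, 13.5, 12.6 and 10.3 under 2i and 6.56, 6.79 and 3.93 under AA+2i. AA+2i lay between DMSO and 2i except in letter C, where it was below DMSO, and Eml1 narrowly missed the threshold (log2 fold change 0.84 ± 0.24, SE, edgeR adjusted p = 0.0508). Crct1, in none of the role groups, was at 1.62, 1.86 and 6.92 TPM in the DMSO libraries, 0, 0.74 and 1.9 under AA, 9.07, 9.66 and 39.8 under 2i and 4.2, 5.76 and 29.8 under AA+2i, with the C library highest in every condition and a wide error (log2 fold change 2.25 ± 1.09, SE, edgeR adjusted p = 0.225). The uncharacterized 6430573F11Rik, named after its values were seen, rose to 8.75, 10 and 7.28 TPM with AA+2i from 4.33, 5.07 and 4.32 TPM (edgeR adjusted p = 0.00615).

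**Figure D5:**
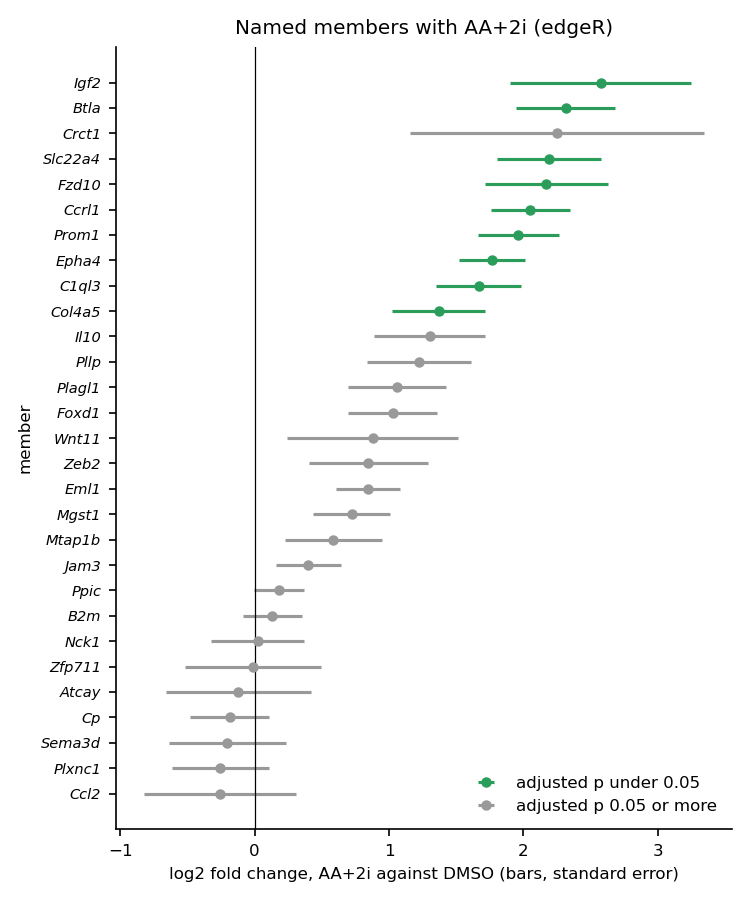
Log2 fold change of AA+2i against DMSO (edgeR, x axis) for the 29 of the 90 genes named by the rule, with standard errors as bars and calls in green. The 9 called genes lie between 1.37 and 2.57, and 6 genes lie below 0.

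The remaining genes are given by role. The surface proteins also held Gjb2, a gap junction connexin, the neural adhesion molecule Ncam1, and Tshr, the thyrotropin receptor. Gjb2 was at 0.41, 0.15 and 0.55 TPM in the DMSO libraries, 0, 0.06 and 0 under AA, 1.68, 1.43 and 3.5 under 2i and 1.11, 1.4 and 3.1 under AA+2i, the lowest mean DMSO level of the 90 genes, and just missed the threshold (edgeR adjusted p = 0.0507). The secreted and matrix proteins also held the ligands Wnt6, Wnt11, Gdnf and Il17d, the matrix protein Tnc, the protease inhibitor Serpine2, Masp1 of the complement system and Ccdc80. Serpine2 was at 7, 6.69 and 6.06 TPM in the DMSO libraries, 3.78, 2.49 and 2.32 under AA, 13.04, 11.1 and 8.68 under 2i and 4.62, 5.55 and 3.68 under AA+2i, with every AA+2i library below every DMSO library. It did not pass the test (log2 fold change -0.32 ± 0.23, SE, edgeR adjusted p = 0.372).

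The transcription regulators also held Ets1, an effector of ERK signalling, the homeodomain factors Meis2 and Meis3, and the coactivator Cited2. Ets1 was at 1.35, 0.92 and 1.89 TPM in the DMSO libraries, 0.43, 0.35 and 0.52 under AA, 3.22, 2.76 and 4.11 under 2i and 0.77, 0.86 and 0.8 under AA+2i, and with AA+2i it was below DMSO in every library without passing the test (log2 fold change -0.56 ± 0.34, SE, edgeR adjusted p = 0.297). The enzymes and channels also held the AMPK subunit Prkaa2, the ryanodine receptor Ryr2, the phosphodiesterase Pde2a, the exchange factor Rasgrp1 and the glycan enzymes Chst11, Gxylt2, Hs6st2 and St3gal5. With them were Acsbg1, Gdpd2, Nat8l and Pla2g12a. Hs6st2, a heparan sulfate sulfotransferase, was at 3.94, 3.25 and 1.79 TPM in the DMSO libraries, 1.5, 0.72 and 0.43 under AA, 5.78, 3.96 and 3.41 under 2i and 1.99, 2.12 and 1 under AA+2i, with DMSO and AA+2i overlapping. The cytoskeletal, vesicle and synaptic group also held Cyfip2, Evl, Kif5c, Necab1, Nedd9, Pak3, Snap91 and Trio. The other genes were Aif1l, Armcx4, Ccnb1ip1, Cgref1, Greb1l, Hbb-y, Jazf1, Kctd8, Lix1, Ndrg4, Prr5l, Rasl11b, Sh3bgrl2, St7, Tmem163, Tmem22, Tmem56, Ydjc and the RIKEN clones 2310014L17Rik, 6230409E13Rik and 8430408G22Rik. Hbb-y, a globin, belongs to a family of similar genes, among which RSEM may divide reads. The genes of this paragraph and the one before, other than Wnt11, were named after their values were seen.

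The 12 pathway lists were drawn up from textbook membership, with earlier results of these data known. They held 4 of the 90 genes (4.44%), against 2.04% of all tested genes. The axon guidance list held 3 (3.33% against 0.306%), and nothing is read from counts this small. Zeb2 is in the mesenchyme list, and Sema3d, Epha4 and Plxnc1 are in the axon guidance list. None of the 90 is in the lists of Wnt targets or ERK targets, which respond to the inhibitors of 2i. These lists hold only 20 and 21 tested genes, so nothing is read from this absence. Ligands and receptors of these pathways are not counted by it. Of 20 Wnt targets and feedback genes tested, 5 rose and 1 fell with 2i (11 and 1 with the letters as a replicate block), and 9 rose and 2 fell with AA+2i. The block called more genes throughout. Of all 13400 tested genes it called 686 higher and 1096 lower with 2i, and 315 higher and 279 lower with AA. Axin2, a feedback inhibitor of Wnt signalling, rose by 5.83 ± 0.77 (log2 fold change, SE, edgeR adjusted p = 0.00202) with 2i. With AA 0 of the 20 were called (edgeR; 1 lower at an unadjusted p under 0.05, and 1 lower with DESeq2 and with limma).

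Of 21 ERK targets and feedback genes, 5 fell with 2i (11 with the block) and 7 with AA+2i. Dusp6, a phosphatase that switches off ERK, changed by -3.00 ± 0.21 with 2i (log2 fold change, SE, edgeR adjusted p = 4.63e-05). With AA 0 were called (edgeR; 1 lower at an unadjusted p under 0.05, 1 with DESeq2 and 0 with limma). Of 23 naive pluripotency genes, 7 rose with AA (11 with the block), 1 rose and 2 fell with 2i (3 and 6 with the block), and 13 rose and 1 fell with AA+2i. Of 41 axon guidance genes, 2 fell with AA (3 with the block), 3 rose and 2 fell with 2i (9 and 3), and 4 rose and 3 fell with AA+2i. Sema3d was among those called lower with AA and Epha4 among those called higher with 2i, by the choice of genes.

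Of 18 mesenchyme genes, 1 rose with AA (1 and 4 lower with the block), 1 rose and 1 fell with 2i (1 and 3), and 2 fell with AA+2i. The mesenchyme gene called higher with 2i in the main test was Zeb2, by the choice of genes. With AA+2i, where 3.93% of all tested genes were called higher and 4.41% lower, 2 rose and 2 fell of 9 primitive streak genes, 2 rose and 4 fell of 21 growth factor receptors and adaptors, and 2 rose and 1 fell of 24 ATF4 targets. In the same comparison 4 rose of 22 lysosomal genes, 2 fell of 36 genes of glycolysis and the hypoxia response, and 1 fell of 23 cholesterol synthesis genes. Of 19 p53 targets 0 were called (edgeR; 2 higher and 6 lower at an unadjusted p under 0.05, 2 lower with DESeq2 and 1 lower with limma). Of the marker lists, 3 of 11 pre-iPSC markers and 1 of 9 feeder markers rose with AA+2i, 1 of 6 trophoblast markers rose and 1 fell, and 2 of 6 neural markers fell. Of 6 primitive endoderm markers 0 were called (edgeR; 0 at an unadjusted p under 0.05, 0 with DESeq2 and 0 with limma).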

How the data were processed

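Pre-iPSC RNA from 12 libraries was analysed from the deposited per-gene files. Per the labels, the authors used Bowtie and RSEM 1.2.4 on mm9, and they trimmed and quality-filtered the reads first. The deposited expected counts are RSEM estimates before any normalization, often fractional. The deposited TPM were scaled library by library by the authors. The deposited FPKM of AA C were used for 1 malformed TPM cell, recomputed as 40.6. The chosen genes and the lists were fixed with earlier results of these data known.

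Rounded expected counts were tested with edgeR 4.0.16 (R 4.3.3) by its quasi-likelihood test with RLE factors, 1 model of the 4 conditions and Benjamini-Hochberg adjustment over 13400 genes (10 or more counts in 3 or more libraries), at an adjusted p under 0.05. Standard errors were taken as the absolute log2 fold change over the root of the F statistic. The EB-Seq test of the study was not run. Differences on the log2(TPM + 1) scale (pseudocount 1) understate changes of low genes. The scripts were tested on simulated data, where 2.97% of the calls of the main test and 19.9% of those of DESeq2 were of unchanged genes. The simulation held no letter or GC effect, so these shares may differ in the real libraries. Of the 90 genes, 1 counts in the totals but is not reported here.

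Named genes were the 12 with the largest smaller-of-both differences and a condition mean of at least 2 TPM, up to 8 called with AA+2i in a direction, those in a pathway list, the 5 most abundant and the 3 on each side of the limits. The 12 pathway and 5 marker lists are given by counts. Positions are mm9, from GENCODE vM1, and promoters are RefSeq (GRCm38.p6, 1 window per gene), so the coordinates of these builds are not interchangeable. The letters were checked as pairs. Deviations from condition means of same-letter libraries correlated by 0.67 to 0.93 between AA and DMSO and 0.25 to 0.86 between 2i and DMSO, but by -0.66 to 0.60 between AA+2i and DMSO. Alternatives were TMM factors, DESeq2 1.42.0, no count filter, limma 3.58.1 on log2(TPM + 1), 10 counts in every library, 2 conditions alone, the replicate block, a GC correction (loess, span 0.4, prior count 2), both together, leaving out each letter, and other scales and limits for the rule.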

Additional observations from a re-analysis of the deposited data

How the results depend on the processing

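The membership depended on the scale. The rule gave 184 genes with a pseudocount of 0.1 and 23 with 5, 151 on CPM with RLE factors, 156 on GC-corrected CPM and 32 with limits of 0.6. It gave 79 to 100 when a letter was left out. Of the 90 genes, 86 were shared with CPM (57% of that set) and 79 with GC-corrected CPM (50.6%). The median AA+2i minus DMSO difference was 0.45 on rescaled TPM, 0.48 on CPM and 0.49 on GC-corrected CPM.

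The number of the 90 called higher with AA+2i was 25 with DESeq2, 35 with the GC correction, 39 with the replicate block, 47 with both, 9 with the 2 conditions alone and 0 to 11 when a letter was left out. Calls over all genes moved the same way, with 6.71%, 8.9%, 15.3%, 17.1% and 2.3% called higher in the first 5 and 0.0311% to 2.29% without a letter, against 3.93% in the main test. With the GC correction and the block 2 were called lower. Deviations from condition means correlated between same-letter AA+2i and DMSO libraries by 0.19 (A), -0.66 (B) and 0.60 (C). For 11 of 12 libraries the best correlation was with a library of their own letter. The exception was AA+2i B, which correlated by 0.76 with DMSO A, 0.83 with AA A and 0.86 with 2i A. With its own letter it correlated by -0.66 (DMSO B), -0.64 (AA B) and 0.03 (2i B). AA+2i A correlated by only 0.19 (DMSO A), 0.23 (AA A) and 0.33 (2i A) with its own letter. The letter pairing of AA+2i A and AA+2i B is thus uncertain. The AA+2i differences by letter and the replicate block rely on this pairing. The counts over the pathway lists with AA were 10 in the main test, 0 with the 2 conditions alone, 22 with DESeq2, 23 with the GC correction, 50 with GC and block, 30 with the replicate block and 0 to 4 without a letter. With 2i they were 30 in the main test, 18 with 10 counts in every library, 14 with the 2 conditions alone, 56 with DESeq2, 71 with the GC correction, 114 with GC and block, 85 with the replicate block and 1 to 19 without a letter. With AA+2i they were 59, 33 with 10 counts in every library, 97 with the GC correction, 138 with GC and block, 125 with the replicate block and 2 to 43 without a letter. With the block and AA+2i, 8 rose and 8 fell of the 36 glycolysis and hypoxia genes, and 11 rose of the 22 lysosomal genes. In that setting 6 fell of the 23 cholesterol genes, and 4 rose and 6 fell of the 19 p53 targets. Of all 13400 tested genes, 2051 rose and 2178 fell in that setting, and the lists were not tested against these counts.

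These values changed sign, none of them called in the main test, and the cause was not tested. Zfp711 became 0.019 with 10 counts in every library, 0.60 with GC, 0.61 with GC and block and 0.088 with the block, and lay between -0.33 (without B) and 0.40 (without A) when a letter was left out. With GC, and with GC and block, Ccl2 became 0.10 and 0.050, Cp 0.30 and 0.27 (-0.37 to 0.038 without a letter), Sema3d 0.36 and 0.34, and Foxd1 -1.13 and -0.11. With limma B2m became -0.067, Ppic -0.022 and Nck1 -0.098. Without a letter, B2m was as low as -0.046 (without C), Nck1 was -0.32 without B and -0.0089 without C, Atcay ran from -0.61 to 0.28 and was 0.0064 without C, and Wnt11 ran from -0.092 (without C) to 1.83.

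The choice on 2 letters was repeated on GC-corrected CPM, an alternative added after seeing the data. The medians in the letter left out follow in the order A, B, C. They were -0.57, -0.71 and -0.60 for AA minus DMSO, and 0.88, 0.74 and 0.94 for 2i minus DMSO. For AA+2i minus DMSO they were 0.43, 0.26 and 0.42. They were 0.95, 0.97 and 1.05 for AA+2i minus AA, and -0.45, -0.46 and -0.44 for AA+2i minus 2i. How depth limits the calls was not tested.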

Other observations

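The AA and 2i differences of the 90 genes, added on the log2(TPM + 1) scale, gave a median of 0.15, and the AA+2i difference had a median of 0.30. The median over genes of AA+2i minus that sum was 0.12, against 0.00289 over all tested genes. The interaction (how far AA+2i departs from the sum of both single changes) shares all its libraries but AA+2i with the choice of genes. With edgeR 0 of the 90 genes had an adjusted p under 0.05 for it, and 9 had an unadjusted p under 0.05, all positive. DESeq2 called 2, the replicate block 1, and the GC correction with the block 3. The shares over all tested genes are not given here, so nothing is read from these counts or from their sign.

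The 11 genes whose mean AA+2i level was above the mean 2i level were Igf2, Fzd10, Btla, 6430573F11Rik, Il17d, Ahr, Epha4, Slc22a4, Lrp4, Ccrl1 and C1ql3, and they were listed after their values were seen. Igf2 went from a mean of 13.8 TPM with 2i to 33.6 TPM with AA+2i, Slc22a4 from 2.12 to 5.02 TPM and Ccrl1 from 2.92 to 5.06 TPM, whereas Lrp4 was at 22.8 and 23.2 TPM. The most negative mean AA+2i differences from DMSO were those of Prr5l (-0.56), Hs6st2 (-0.55) and Aif1l (-0.48), none of which passed the test.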
